A study of Mus musculus with 16 samples.

Results

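The 10 genes described here encode chaperones and enzymes that fold proteins in the endoplasmic reticulum (ER), or belong to the unfolded protein response (UPR) that raises their expression. They are Hspa5, Hsp90b1, Dnajb11, Sdf2l1, Calr, Pdia4, Pdia6, Manf, Creld2 and Xbp1. Each was taken by its symbol from the deposited tables, which list 24421 genes, and all 10 were found and tested. RNA was sequenced from the somatosensory cortex of wild-type C57BL/6 mice (C57BL/6J in the methods of the study) and of mice homozygous for loss of AcPb, the isoform of the interleukin-1 receptor accessory protein found in neurons. According to the labels all mice were males aged 2 to 3 months. Sleep disruption (SD) was by gentle handling for 8 h from ZT20 to ZT4, hours counted from light onset, and undisturbed mice served as controls (CTL) and were killed at the same ZT4. The tables hold 3 libraries for each of the 4 groups, CTL-WT, SD-WT, CTL-AcPbKO and SD-AcPbKO, and a further 4 samples of the labels were not analysed here. The AcPb-/- line was bred at the study site for several generations, and the labels do not say whether the wild-type mice were its littermates. A gene-level count of Il1rap holds its other isoform too, and at 1476 to 1647 in controls of both genotypes it did not serve as a check on the loss of AcPb.

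The ER folds and glycosylates proteins that are to be secreted or placed in membranes. When unfolded proteins build up there, the sensors ATF6, IRE1 (gene Ern1) and PERK (gene Eif2ak3) signal to the nucleus and to the ribosome. The cleaved ATF6 protein and the XBP1 protein made from IRE1-spliced mRNA raise transcription of ER chaperones, and PERK slows translation and favours ATF4. Extended wakefulness is a setting in which ER chaperone expression in the cortex has long been studied, with the product of Hspa5 as the usual marker.

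The elements through which ATF6 and XBP1 are known to act were searched in promoters, and the matches are shown because they set some members apart from the rest before any level is considered. RefSeq promoters of GRCm38.p6, from 250 bases before to 50 bases after the start of transcription, were on hand for 9 of the 10 members, Manf being the other. The ER stress response element (ERSE) was searched as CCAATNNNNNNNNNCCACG, that is CCAAT and CCACG with 9 bases of any kind between them, on both strands, and every match therefore holds a CCAAT box as well. It was found in 5 of the 9 promoters (55.6%), against 37 of 27025 genes (0.137%) in the whole promoter table. In the list of other ER folding factors below 2 of 21 held it (9.52%), and of 9 heat shock genes outside the ER 0 did. The related ERSE-II, ATTGGNCCACG, was found in Dnajb11, against 12 of all genes (0.0444%), and the XBP1-binding core TGACGTGG was in 0 of the 9 against 193 of all genes (0.714%). CCAAT alone was in 8 of the 9 and in 41.1% of all genes, Xbp1 being the member without it. The matches are printed on the strand of the gene, 5′ to 3′, with the element in capitals and 5 bases on either side. In Calr, Creld2 and the second match of Hsp90b1 the element reads in the reverse direction.
Hspa5, chr2:34772020-34772048, plus strand, starting 65 bases before the start: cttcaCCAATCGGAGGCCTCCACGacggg
Hsp90b1, chr10:86705633-86705661, minus strand, 212 bases before: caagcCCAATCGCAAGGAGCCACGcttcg
Hsp90b1, chr10:86705528-86705556, minus strand, 107 bases before: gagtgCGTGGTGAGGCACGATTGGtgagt
Calr, chr8:84847070-84847098, minus strand, 162 bases before: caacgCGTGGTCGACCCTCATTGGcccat
Pdia6, chr12:17266486-17266514, plus strand, 98 bases before: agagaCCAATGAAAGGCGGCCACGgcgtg
Creld2, chr15:88819515-88819543, plus strand, 126 bases before: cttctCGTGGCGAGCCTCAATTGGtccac
Dnajb11 (ERSE-II), chr16:22857847-22857867, plus strand, after the first 7 transcribed bases: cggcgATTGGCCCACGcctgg
The Hspa5 match lies inside the first exon of the GENCODE gene model, which begins farther upstream than the RefSeq start. For Pdia4 and Xbp1 the bases at the RefSeq start were not found in a GENCODE transcript of the gene. A missing element there holds for the RefSeq window only. A match is a description of letters, and binding was not measured here. The members were listed as genes of the response that these elements are known to serve. Their share of matches is therefore not an independent result.

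Depth and sex-linked reads differed between the groups and are given first. Control libraries held 26504840 to 41615582 reads on genes and SD libraries 58770286 to 71857505. In 4 of the 6 controls, CTL-WT 02 and 03 and CTL-AcPbKO 04 and 05, 25352 to 39358 reads fell on Xist, the RNA that coats an inactive X chromosome, and 0 to 2 on Y-linked genes, against the male label. The other 8 libraries, all 6 SD libraries among them, had 5 to 13 Xist reads and 5105 to 10593 Y-linked reads. SD values of the members are therefore given with and without these 4 libraries, and so are the counts of the related lists. Without them 1 control remained for each genotype, so that the spread came from the SD libraries. Neuron markers summed to 340204 to 396645 normalized counts over the libraries, and striatal neuron markers to 7428 to 13476. Library SD-AcPbKO 04 had 17873 counts of choroid plexus markers, mostly Ttr, against 267 to 582 in the other 11, and the sum of oligodendrocyte markers spanned 53954 to 136457 over the controls and 69595 to 119034 over the SD libraries. In the fit of both genotypes 2 of 6 oligodendrocyte markers, 3 of 6 microglia markers, 2 of 6 astrocyte markers and 2 of 6 meningeal fibroblast markers were lower after SD, and 0 of these lists had a marker called higher. Neuron markers gave 3 higher and 2 lower of 6, endothelium markers 2 higher and 1 lower, choroid plexus markers 1 higher, and striatal neuron markers 0 either way. Of all genes 21.4% were higher and 20.6% lower in this fit, so counts of 2 of 6 carry little weight. In wild-type mice alone 4 of 6 oligodendrocyte markers were lower, against 12.2% of all genes. So were 2 of 6 each for striatal neuron, astrocyte and meningeal fibroblast, and 1 each for microglia and endothelium. In AcPb-/- mice 1 of 6 oligodendrocyte, 2 of 6 microglia and 0 striatal neuron markers were lower, against 13.3% of all genes. Astrocyte, endothelium and meningeal fibroblast lists had 1 each. Without the Xist libraries 5 of 6 oligodendrocyte markers were lower in the fit of both genotypes, with a median log2 fold change of -0.71. Of all genes 13.5% were then lower. The 4 globin genes searched are listed at 0 in every library. Their part in the results below was not tested. In bulk tissue, fewer cells of a type and less RNA per cell cannot be told apart.

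With all libraries, most of the 10 members were higher after SD than in controls in both genotypes. Fewer passed without the controls with Xist reads, as given below. In wild-type mice 7 of the 10 members passed the threshold (adjusted p under 0.05) and all 7 were higher after SD, against 13.2% of 20417 genes called higher and 12.2% called lower. In AcPb-/- mice 9 of 10 passed, all higher, against 14.1% of 20574 genes higher and 13.3% lower. With both genotypes in 1 fit 9 of 10 were higher, against 21.4% of 20978 genes higher and 20.6% lower. The median log2 fold change of the members was 0.48 in wild-type and 0.68 in AcPb-/- mice, and over all genes with a mean of at least 10 counts it was -0.0015 and 0.0072. Sdf2l1 passed in neither genotype, and Creld2 and Xbp1 passed in AcPb-/- mice only, a difference that was not itself significant (below). All 3 SD libraries lay above all 3 controls for the same 7 members in wild-type mice, against 20.5% of genes, and for the same 9 in AcPb-/- mice, against 21.7%. Together the 10 genes took 0.118% of reads on genes in CTL-WT (standard deviation 0.0114), 0.186% in SD-WT (0.0147), 0.106% in CTL-AcPbKO (0.0040) and 0.199% in SD-AcPbKO (0.0107).

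**Figure D1:**
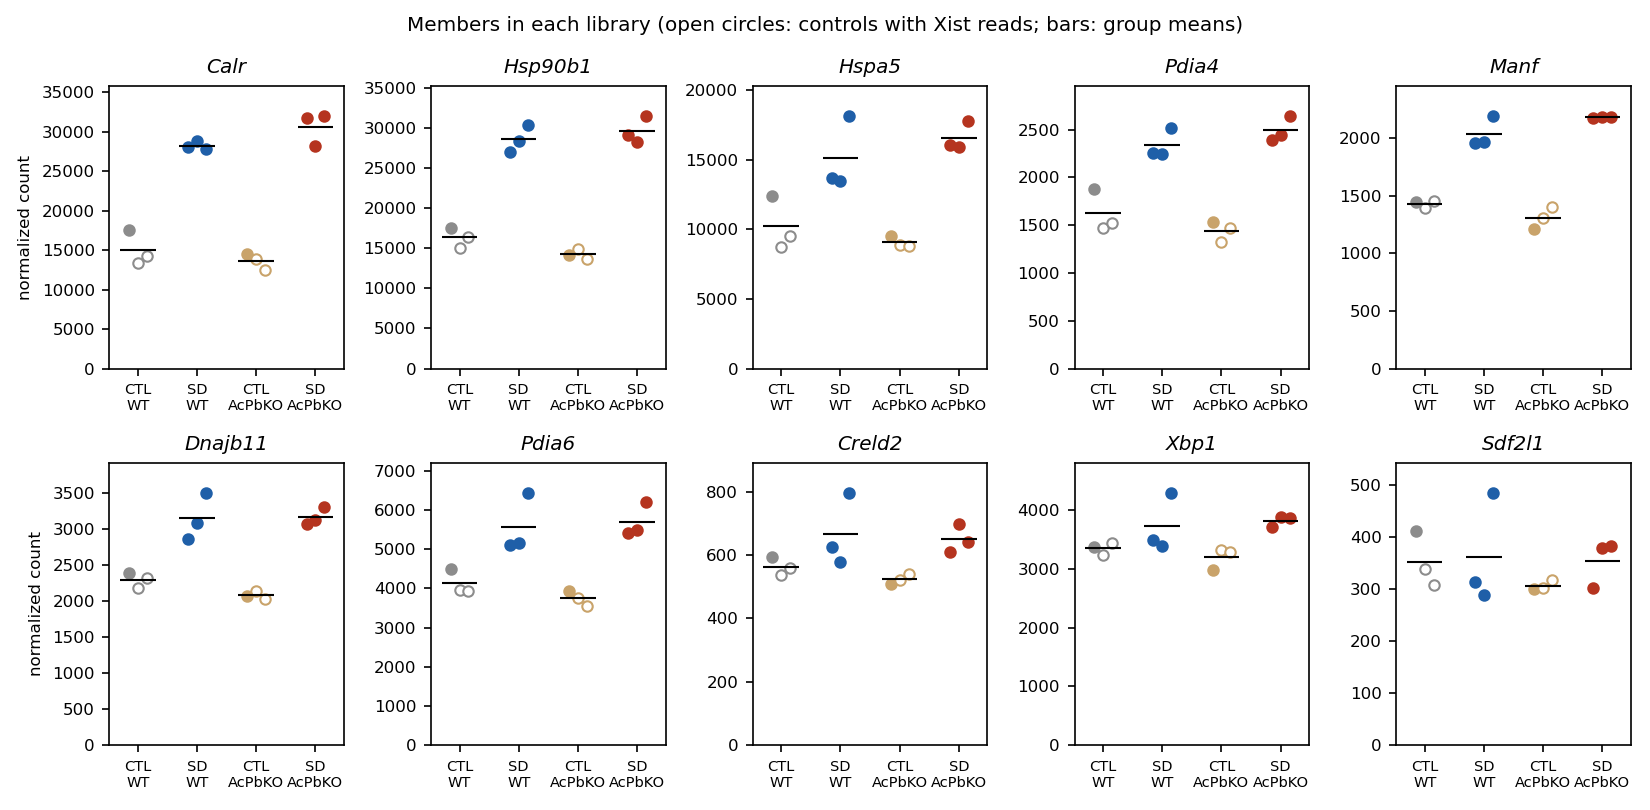
Normalized count (vertical axes, from 0) of each member in each of the 12 libraries, grouped by genotype and treatment, with the group mean as a bar and the 4 controls with Xist reads as open circles. For 7 members the SD points sit wholly above the controls in both genotypes, whereas for Sdf2l1 they overlap in both.

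Levels per library are given below as normalized counts, reads divided by a size factor common to all 12 libraries, in the order of the replicate numbers (01, 02, 03 for CTL-WT, 01, 02, 04 for SD-WT, 03, 04, 05 for CTL-AcPbKO and 02, 03, 04 for SD-AcPbKO). Fold changes within a genotype are differences of log2(value + 1), SD minus control, with values scaled within the table of that comparison, and those over both genotypes use the common scale. They are given with the standard error (SE) and the adjusted p of limma, which tests all genes together and borrows the spread between them. Positions of genes are those of GENCODE on GRCm38.

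The central ER chaperone of the Hsp70 class is BiP, the product of Hspa5 (chromosome 2, 34771970 to 34777547), which holds nascent chains and keeps the UPR sensors inactive. Hspa5 counts were 12375, 8752 and 9489 in CTL-WT and 13675, 13499 and 18119.5 in SD-WT. The groups did not overlap, but the lowest SD-WT library was only a little above CTL-WT 01, the control without Xist. In wild-type mice the log2 fold change was 0.57 (SE 0.14, adjusted p = 0.0140). Hspa5 counts in AcPb-/- mice were 9546, 8879.6 and 8832 without and 16046, 15899.5 and 17760.0 with SD. Here the groups lay far apart. The log2 fold change of Hspa5 there was 0.87 (SE 0.066, adjusted p = 0.000444). Without the 4 libraries with Xist reads these became 0.27 (adjusted p = 0.390) in wild-type and 0.79 (adjusted p = 0.0479) in AcPb-/- mice. The wild-type call was also lost without CTL-WT 02 (0.46, adjusted p = 0.0685).

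GRP94, the ER member of the Hsp90 class, is encoded by Hsp90b1 (chromosome 10, 86690209 to 86705509) and folds a limited set of secreted and membrane proteins. Hsp90b1 counts were 17545, 15055.5 and 16455 in CTL-WT and 26978, 28437 and 30409.5 in SD-WT. In AcPb-/- mice the counts of Hsp90b1 were 14097, 14954 and 13692 in controls and 29101, 28243 and 31461 after SD. Every SD library exceeded every control, and within each genotype the spread was small beside the gap. The wild-type log2 fold change was 0.81 (SE 0.076, adjusted p = 0.000236). The AcPb-/- value was 1.06 (SE 0.068, adjusted p = 0.000444). Leaving out the Xist libraries gave 0.70 (adjusted p = 0.0432) and 1.07 (adjusted p = 0.0232) for wild-type and AcPb-/- mice. Part of its exons (10.3% of exon bases) overlaps the pseudogene 1810014B01Rik on the other strand, which averaged 116 counts, and 4.97% of its 100-base stretches occur in other genes.

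Dnajb11 (chromosome 16, 22857845 to 22879634) encodes ERdj3, a J-domain protein that hands unfolded clients to BiP. Its counts were 2385, 2178 and 2314 in CTL-WT, 2858, 3079.7 and 3503.5 in SD-WT, 2074, 2140.0 and 2035 in CTL-AcPbKO and 3075, 3128 and 3304 in SD-AcPbKO. The controls of both genotypes lay within a narrow band and all 6 SD libraries above it. Dnajb11 rose in wild-type mice with a log2 fold change of 0.45 (SE 0.079, adjusted p = 0.00317). Dnajb11 rose in AcPb-/- mice with a log2 fold change of 0.61 (SE 0.056, adjusted p = 0.000610). With the Xist libraries left out Dnajb11 stood at 0.39 (adjusted p = 0.105) in wild-type and 0.61 (adjusted p = 0.0337) in AcPb-/- mice.

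Sdf2l1 (chromosome 16, 17130138 to 17132383), whose product works in a complex with ERdj3, was the member with the fewest reads and gave no call. Sdf2l1 counts were 411, 338 and 308 in CTL-WT and 313, 289.6 and 486 in SD-WT. SD-WT 04 stood well above the rest while SD-WT 01 lay among the controls and SD-WT 02 below them. Sdf2l1 in AcPb-/- mice was at 300.1, 302 and 318 counts in controls and 303, 380.2 and 382 after SD, so that 1 SD library remained within the control range. Its log2 fold change was 0.013 (SE 0.18, adjusted p = 0.967), with a 95% interval of -0.40 to 0.42. In the AcPb-/- mice it was 0.21 (SE 0.12, adjusted p = 0.237), with an interval of -0.062 to 0.47. These intervals do not reach the changes of Calr or Hsp90b1. After removal of the Xist libraries the values were -0.22 (adjusted p = 0.703) and 0.23 (adjusted p = 0.654). Its paralog Sdf2 averaged 1736 counts in CTL-WT, 1688 in SD-WT, 1715 in CTL-AcPbKO and 1670.2 in SD-AcPbKO, with log2 fold changes of -0.04 (adjusted p = 0.694) and -0.036 (adjusted p = 0.731).

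Calreticulin, a lectin that binds monoglucosylated glycoproteins and stores calcium in the ER lumen, is encoded by Calr (chromosome 8, 84841850 to 84846934) and changed most of the 10. Calr counts were 17537, 13334 and 14301.5 in CTL-WT and 28097, 28797 and 27768 in SD-WT. After SD the 3 wild-type libraries lay close together, whereas CTL-WT 01 exceeded the other controls. Calr counts reached 31722, 28149.6 and 31976.5 in SD-AcPbKO from 14567, 13914 and 12451 in CTL-AcPbKO. The log2 fold change of Calr was 0.92 (SE 0.093, adjusted p = 0.000293). Among AcPb-/- mice it was 1.17 (SE 0.082, adjusted p = 0.000444). Of all genes with a mean of at least 10 counts, 1.06% in wild-type and 0.784% in AcPb-/- mice had a larger log2 fold change. The removal of the Xist libraries left 0.69 (adjusted p = 0.0431) for wild-type and 1.07 (adjusted p = 0.0232) for AcPb-/- mice. Its membrane-bound relative calnexin (Canx) differed by 0.066 (adjusted p = 0.585) in wild-type mice and rose by 0.22 (adjusted p = 0.0315) in AcPb-/- mice, a call lost without the Xist libraries (0.23, adjusted p = 0.263).

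Disulfide bonds in the ER are formed and reshuffled by the protein disulfide isomerases, of which Pdia4 (chromosome 6, 47796141 to 47813430) and Pdia6 (chromosome 12, 17266545 to 17284770) are members here. Pdia4 counts were 1875, 1470.5 and 1527 in CTL-WT and 2254, 2239 and 2516 in SD-WT. In the AcPb-/- groups Pdia4 was at 1537, 1319 and 1467 in controls and 2395, 2447 and 2638 after SD. The groups were separate in each genotype, by the smallest margin between CTL-WT 01 and SD-WT 02. Pdia4 had a wild-type log2 fold change of 0.53 (SE 0.094, adjusted p = 0.00332). Pdia4 had an AcPb-/- log2 fold change of 0.80 (SE 0.074, adjusted p = 0.000610). For Pdia4 without the Xist libraries the wild-type value was 0.32 (adjusted p = 0.106) and the AcPb-/- value 0.70 (adjusted p = 0.0237).

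Pdia6 counts were 4506, 3956.5 and 3934 in CTL-WT and 5095, 5161 and 6441 in SD-WT, and they were 3933, 3754 and 3561 in CTL-AcPbKO and 5407, 5494 and 6206 in SD-AcPbKO. SD-WT 04 and SD-AcPbKO 04 were the highest of their groups, and the remaining SD libraries were close together. The change of Pdia6 in wild-type mice was 0.42 (SE 0.094, adjusted p = 0.00945). The change of Pdia6 in AcPb-/- mice was 0.61 (SE 0.07, adjusted p = 0.00102). Pdia6 without the Xist libraries came to 0.30 (adjusted p = 0.286) in wild-type and 0.53 (adjusted p = 0.0804) in AcPb-/- mice. Of the isomerases that are not members, Pdia3, the partner of calreticulin, moved like them, with counts of 8527, 7300.3 and 7801 in CTL-WT and 11125, 11561 and 13004 in SD-WT and log2 fold changes of 0.59 (adjusted p = 0.000898) in wild-type and 0.84 (adjusted p = 0.000444) in AcPb-/- mice, the first of which was 0.48, adjusted p = 0.0707 without the Xist libraries. The last exon of Pdia6 shares 50 bases (1.34% of its exon bases) with Atp6v1c2 on the other strand, at a mean of 48.0 counts. P4hb, the archetypal isomerase, differed by 0.078 (adjusted p = 0.458) and 0.12 (adjusted p = 0.145) and did not pass.

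Manf (chromosome 9, 106838312 to 106891979) encodes a small ER protein, bound to BiP at rest and secreted upon stress, that protects neurons. Manf counts were 1446, 1392 and 1453 in CTL-WT and 1955, 1963 and 2188 in SD-WT. They were 1208, 1307 and 1398 in CTL-AcPbKO and 2177, 2185 and 2184 in SD-AcPbKO, the last group being the tightest of any member with a standard deviation of 4.18 counts. For Manf the wild-type log2 fold change was 0.51 (SE 0.067, adjusted p = 0.000895). For Manf the AcPb-/- value was 0.75 (SE 0.068, adjusted p = 0.000610). Without the Xist libraries Manf came to 0.49 (adjusted p = 0.0458) in wild-type and 0.85 (adjusted p = 0.0232) in AcPb-/- mice. The gene model overlaps Vprbp on the other strand and Rbm15b on its own, by 4.14% and 0.397% of its exon bases, and the strand setting of the counting is not given in the sources used here. Its paralog Cdnf, at a mean of 82.9 counts, did not pass in either genotype and was lower in the fit of both by a log2 fold change of -0.48 (adjusted p = 0.0208), or -0.57, adjusted p = 0.0784 without the Xist libraries.

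Creld2 (chromosome 15, 88819646 to 88826683) encodes a secreted protein with epidermal growth factor-like domains that is induced by ER stress. Creld2 counts were 594, 538 and 558 in CTL-WT and 626, 578 and 797 in SD-WT, and 1 SD-WT library fell below CTL-WT 01. In the AcPb-/- mice Creld2 counts were 507, 521 and 540.5 in controls and 611, 698 and 641 after SD, with no overlap. Its wild-type log2 fold change was 0.23 (SE 0.12, adjusted p = 0.177), with an interval of -0.027 to 0.49. Its AcPb-/- log2 fold change was 0.31 (SE 0.083, adjusted p = 0.0234), and the call was lost without CTL-AcPbKO 03 (adjusted p = 0.0505) or 04 (0.0730) and without SD-AcPbKO 03 (0.0568) or 04 (0.0678). Creld2 without the Xist libraries was at 0.15 (adjusted p = 0.656) and 0.35 (adjusted p = 0.259). The paralog Creld1 did not pass, at 0.012 (adjusted p = 0.895) in wild-type and 0.073 (adjusted p = 0.390) in AcPb-/- mice.

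Xbp1 (chromosome 11, 5520659 to 5525893) encodes the transcription factor of the IRE1 arm. A gene-level count sums spliced and unspliced Xbp1 mRNA, so splicing by IRE1 cannot be read from it. Xbp1 counts were 3371, 3237 and 3441 in CTL-WT and 3502, 3388 and 4299 in SD-WT, where only SD-WT 04 stood clear of the controls by a wide margin. In CTL-AcPbKO they were 2990.1, 3328 and 3287 and in SD-AcPbKO 3722, 3887 and 3865, which do not overlap. Xbp1 differed in wild-type mice by 0.15 (SE 0.086, adjusted p = 0.247), with an interval of -0.044 to 0.34. Xbp1 rose in AcPb-/- mice by 0.26 (SE 0.061, adjusted p = 0.0141), a call that was lost without SD-AcPbKO 04 (adjusted p = 0.0553). Xbp1 without them was at 0.14 (adjusted p = 0.568) in wild-type and 0.35 (adjusted p = 0.144) in AcPb-/- mice.

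**Figure D2:**
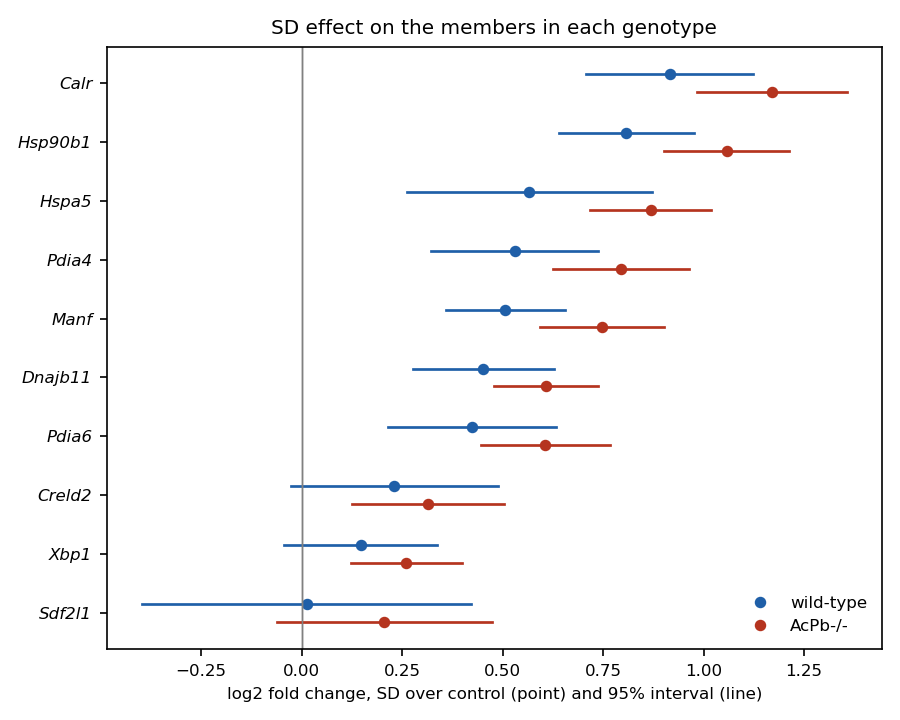
Log2 fold change, SD over control, of each member (horizontal axis; points) with its 95% interval (lines) in wild-type and AcPb-/- mice, ordered by the fit of both genotypes. The order from Calr to Sdf2l1 is the same in both genotypes, and each AcPb-/- point lies to the right of the wild-type point.

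With all libraries the members had the same order of SD effect in each genotype. Calr and Hsp90b1 led, then Hspa5, Pdia4, Manf, Dnajb11 and Pdia6, then Creld2 and Xbp1, with Sdf2l1 last. Over the 10 members the effects in wild-type and AcPb-/- mice had a Spearman rho of 1 and a Pearson r of 0.987. The comparisons share no library, but genes are not independent replicates and the correlation is a description. Neighbours from Hspa5 to Pdia6 differed by no more than their standard errors in wild-type mice, as did Dnajb11 and Pdia6 in AcPb-/- mice, so their order carries no weight. Without the Xist libraries the orders differed, with a Spearman rho of 0.891 and a Pearson r of 0.926. Hsp90b1 and Calr still led and Manf came next in both genotypes, whereas Hspa5 was the seventh in wild-type and the fourth in AcPb-/- mice. In the fit of both genotypes the log2 fold changes were 1.04 for Calr (SE 0.073, adjusted p = 5.48e-07), 0.93 for Hsp90b1 (SE 0.059, adjusted p = 2.76e-07), 0.72 for Hspa5 (SE 0.095, adjusted p = 3.96e-05) and 0.11 for Sdf2l1 (SE 0.12, adjusted p = 0.525). The 6 others lay between 0.20 for Xbp1 and 0.66 for Pdia4 and all passed. The values over both genotypes without the Xist libraries were 0.88 for Calr (adjusted p = 0.000214), 0.89 for Hsp90b1 (adjusted p = 0.000212), 0.67 for Manf (adjusted p = 0.000485), 0.53 for Hspa5 (adjusted p = 0.0127) and 0.0075 for Sdf2l1 (adjusted p = 0.980).

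Leaving out the 4 libraries with Xist reads lowered the wild-type SD effects of all 10 members and those of 4 of them in AcPb-/- mice (Hspa5, Pdia4, Pdia6 and Calr). Under that setting 3 of 10 passed in wild-type mice (Hsp90b1, Manf and Calr), 6 of 10 in AcPb-/- mice and 7 of 10 in both together, while over all genes, with the 4 groups in 1 fit, the calls fell from 5108 to 680 in wild-type mice and from 6485 to 2080 in AcPb-/- mice. After that removal 20768 genes were tested in each of these fits. In both genotypes together 15% of them were higher and 13.5% lower. The calls within a genotype, of members as of all genes, rest on 1 control. With a term for the Xist libraries in place of their removal, the members called numbered 6, 8 and 8 in wild-type mice, AcPb-/- mice and both together. Over all genes 4057, 5189 and 6559 of 20978 were then called in either direction. Set against the 1 wild-type control without Xist, all 3 SD-WT libraries were higher for 8 of 10 members, the exceptions being Sdf2l1 and Creld2. In AcPb-/- mice this held for 10 of 10. The share of all genes in this order was not taken, and each count rests on 1 control, so the counts carry little weight. That wild-type control, CTL-WT 01, was the highest of its group for 8 of 10 members, by a median of 0.17 on the log2 scale over the mean of the others. The corresponding control of the AcPb-/- group was the highest for 4 of 10, with a median difference of -0.015.

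**Figure D3:**
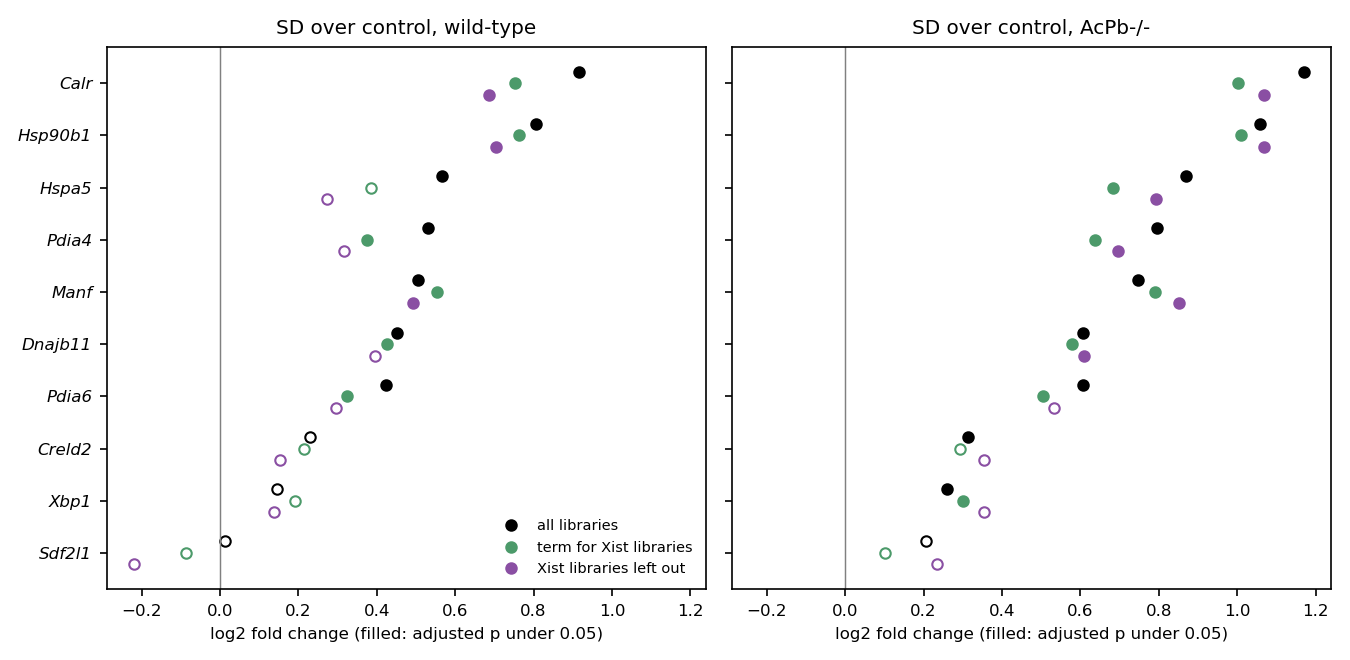
Log2 fold change, SD over control, of each member (horizontal axes) in wild-type mice (left) and AcPb-/- mice (right) with all libraries, with a term for the Xist libraries and with these left out; filled circles passed at an adjusted p under 0.05. Of the wild-type changes Hspa5 fell the farthest, from 0.57 to 0.27, and Sdf2l1 turned from 0.013 to -0.22.

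Loss of AcPb did not change the members detectably. In controls 0 of 10 were called, against 0.0197% of 20273 genes (4 genes) in limma. Of the members edgeR and DESeq2 also called 0, with 8 and 104 genes called in all. In limma 2 of 10 members had an unadjusted p under 0.05, against 1730 of 20273 genes. All 10 values were lower in AcPb-/- mice, by 0.067 (Xbp1) to 0.20 (Hsp90b1) on the log2 scale. Hsp90b1 (fell by 0.20, adjusted p = 0.477, 95% interval -0.35 to -0.046) and Dnajb11 (fell by 0.14, adjusted p = 0.552, interval -0.27 to -0.011) were lower in every AcPb-/- control than in every wild-type control. That is 2 of 10 members without overlap, against 14.4% of genes. After SD 0 of 10 were called as well, against 0.0145% of 20621 genes (3 genes) in limma. With edgeR and DESeq2, which called 9 and 99 genes, 0 members passed as well. An unadjusted p under 0.05 in limma was found for 0 of 10 members, against 1265 of 20621 genes. Here 8 of 10 values were higher in AcPb-/- mice and 0 of 10 groups were free of overlap, against 11.4% of genes. The widest of the log2 differences was that of Hspa5, 0.15 with an interval of -0.11 to 0.40, and that of Sdf2l1 was -0.0014 with an interval of -0.42 to 0.42.

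The SD effect itself was compared between the genotypes as an interaction over the 12 libraries. All 10 estimates were larger in AcPb-/- mice, by 0.080 for Creld2 to 0.30 for Hspa5, with a median of 0.21, and 0 of 10 passed, against 0% of 20978 genes in limma. Before adjustment, 839 genes had a p under 0.05, Hsp90b1 (0.25, interval 0.026 to 0.47, unadjusted p = 0.0314 in limma) and Manf (0.24, interval 0.043 to 0.43, unadjusted p = 0.0207 in limma) among them, and their adjusted p was 0.986. Without the Xist libraries the estimates ran from 0.20 for Creld2 to 0.52 for Hspa5, with a median of 0.36, and 0 of 10 passed. With edgeR 0 genes passed and with DESeq2 1 did, not a member. The 10 estimates are not independent, since the same control libraries set all of them, and the lower values of the AcPb-/- controls enter them. For Hspa5 the interval of -0.089 to 0.69 holds both 0 and the wild-type SD effect of 0.57.

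**Figure D4:**
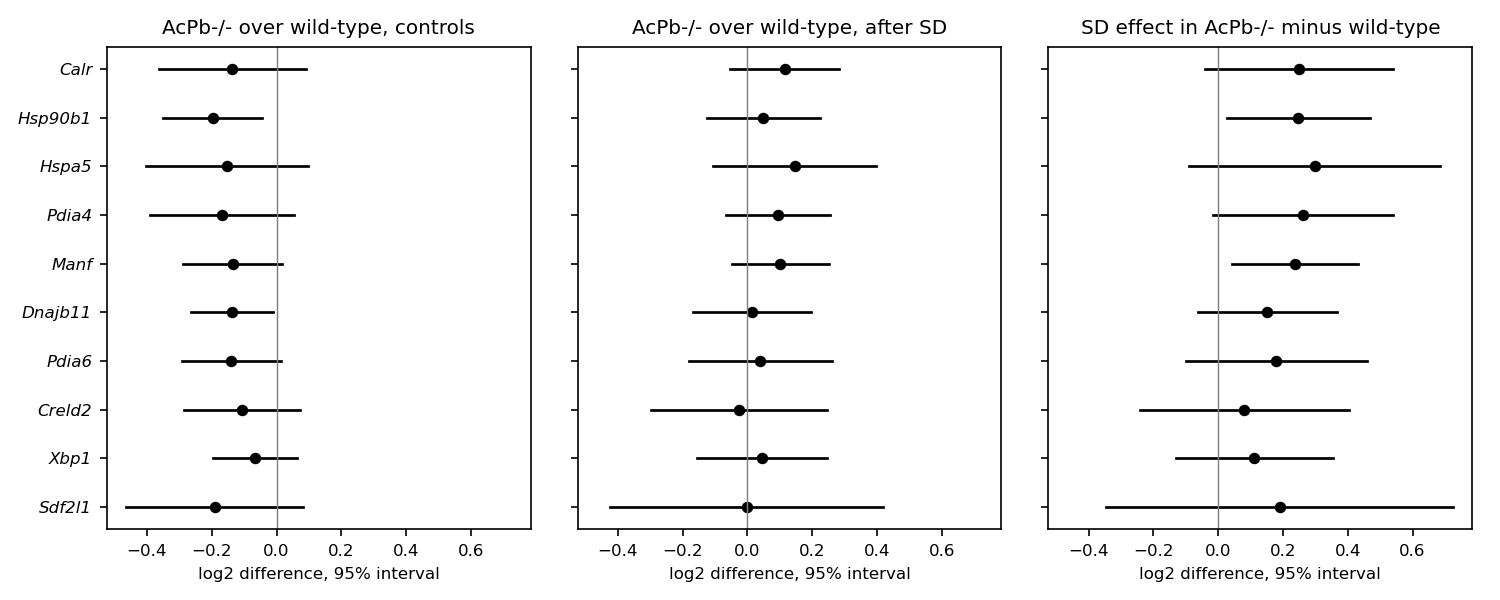
Log2 differences of each member with 95% intervals (lines) for AcPb-/- over wild-type in controls (left), the same after SD (middle), and the SD effect in AcPb-/- minus that in wild-type mice (right). Points lie below 0 on the left and above 0 on the right for all 10 members, and most intervals include 0.

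Levels of different genes were compared per length, as reads per kilobase of exon and per total of reads on genes (RPKM). In CTL-WT the order was Calr at 112 (standard deviation 14.9), Hsp90b1 at 86.7 (5.66), Hspa5 at 51.6 (9.0), Pdia6 at 23.6 (1.56), Xbp1 at 22.1 (0.644), Dnajb11 at 15.2 (0.545), Pdia4 at 14.5 (1.76), Creld2 at 8.82 (0.334), Manf at 8.68 (0.169) and Sdf2l1 at 6.80 (0.943). Pdia6 and Xbp1, Dnajb11 and Pdia4, and Creld2 and Manf are neighbours whose libraries overlapped. After SD the wild-type means were 203 for Calr, 147 for Hsp90b1 and 74.2 for Hspa5, and in SD-AcPbKO they were 222, 153 and 81.8. The 3 most abundant members were also the 3 with the largest log2 fold change when all libraries were used, but without the Xist libraries Manf exceeded Hspa5 in both genotypes.

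The members also varied together between mice of the same group. SD-WT 04 was the highest of its group for 9 of 10 members, all but Calr, and SD-AcPbKO 04, the library with choroid plexus counts, for 7 of 10. After the group means were removed, 42 of the 45 pairs of members were positively correlated over the 12 libraries, with a median r of 0.62. The closest pairs were Sdf2l1 with Creld2 (r = 0.92) and Hspa5 with Pdia6 (r = 0.92), and Calr with Manf was the farthest (r = -0.25). These points share library, depth and normalization, and the same correlations were not taken for pairs of other genes. SD-WT 04 also differed from its group across genes. Its reads gave a chi-square per degree of freedom of 33.9 against SD-WT 01 and 34.2 against SD-WT 02, where SD-WT 01 and 02 gave 7.76. The pairs of SD-AcPbKO ran from 18.8 to 32.5. The part of such differences in the correlations was not tested. Among 12545 other genes with a mean of at least 100 counts, those whose levels most resembled the mean standardized profile of the members were Smg1 (r = 0.97), Pdia3 (r = 0.97), Ostc (r = 0.97), Hsph1 (r = 0.97), Plekhg4 (r = 0.97), Naa15 (r = 0.96), Odc1 (r = 0.96), Cct6a (r = 0.96), Nmt2 (r = 0.96) and Amz2 (r = 0.96), over 12 libraries in 4 groups. These r values include the differences between groups. With the group means removed they ran from 0.69 (Amz2) to 0.83 (Ostc). Ostc, a subunit of the oligosaccharyltransferase that glycosylates proteins in the ER, went from 1101 to 1477 counts in wild-type and from 994 to 1422 in AcPb-/- mice.

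In the rest of the ER folding machinery genes were called in both directions. The members and lists were chosen with earlier results of these data known, so any contrast between them is a description. Of 27 other ER folding factors, 9 were higher after SD in the fit of both genotypes, 6 were lower and 12 did not pass, with a median of 0.059, against 21.4% of all genes higher and 20.6% lower. The share called lower lies near that of all genes, and the share called higher lies above it. Dnajc1, a J-domain protein at the ER membrane (0.72, adjusted p = 4.39e-07), Pdia3 (0.71, adjusted p = 1.35e-06) and Fkbp2, an ER prolyl isomerase (0.65, adjusted p = 9.74e-07), were the 3 with the largest absolute change. Of 28 genes of ER-associated degradation and the translocon, 12 were higher, 7 lower and 9 not called, with a median of 0.028, against the same shares of all genes. Derl3, a derlin of the retrotranslocation channel, rose by 1.08 (adjusted p = 1.39e-05), and Sec61b of the translocon (-0.63, adjusted p = 0.000853) was lower. In wild-type mice alone these lists gave 8 higher and 5 lower of 27, and 8 higher and 5 lower of 28. In AcPb-/- mice they gave 9 and 5, and 8 and 4. Of all genes 13.2% were higher and 12.2% lower in wild-type mice, and 14.1% and 13.3% in AcPb-/- mice. With the Xist libraries left out the fit of both genotypes gave 8 higher and 4 lower of 27, and 8 higher and 2 lower of 28, when 15% of all genes were higher and 13.5% lower. Sec61b was then at -0.53 (adjusted p = 0.0671), and Derl3 at 0.98 (adjusted p = 0.00273).

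Among the 9 sensors and proteases of the UPR, 4 were higher and 1 lower in the fit of both genotypes (median 0.027), where 21.4% of all genes were higher and 20.6% lower. Creb3l1, a transmembrane factor related to ATF6, rose by 0.95 (adjusted p = 0.000105), Atf6 by 0.38 (adjusted p = 7.91e-05) and Ern1 by 0.30 (adjusted p = 0.00154), and Eif2ak3 differed by -0.044 (adjusted p = 0.495). Ern1 passed in AcPb-/- mice (0.38, adjusted p = 0.0112) and not in wild-type mice (0.23, adjusted p = 0.120), and 0 of the 9 genes of this list passed in the interaction. In the PERK-ATF4 arm 3 of 10 were higher and 2 lower (median 0.039), shares near those of all genes. Atf4 mRNA rose by 0.37 (adjusted p = 0.000245). Ddit3, the gene of the pro-apoptotic factor CHOP, rose by 0.11 (adjusted p = 0.0465). The single-genotype values of Ddit3 were 0.15 (adjusted p = 0.129) in wild-type and 0.082 (adjusted p = 0.455) in AcPb-/- mice. Ddit4 (-0.41, adjusted p = 0.000395) and Sesn2 (-0.34, adjusted p = 0.000656), both ATF4 targets, were lower. When the Xist libraries were left out, 2 of 9 sensors and 2 of 10 genes of the PERK-ATF4 arm were higher and 0 lower. Of all genes 15% were then higher and 13.5% lower, and counts this small cannot be set apart from those shares. Atf4 stood at 0.53 (adjusted p = 0.000420), and Ern1, Ddit3, Ddit4 and Sesn2 no longer passed. Of 12 heat shock proteins outside the ER, most of them cytosolic and 2 of them (Hspd1 and Hspe1) mitochondrial, 8 were higher and 0 lower (median 0.33), and 8 and 0 without the Xist libraries. They were led by Hspa8 (0.90, adjusted p = 5.13e-07), its exchange factor Hsph1 (0.84, adjusted p = 7.50e-07) and Hsp90aa1 (0.63, adjusted p = 3.28e-06). All genes with a mean of at least 10 counts had a median of 0.0010 in this fit.

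**Figure D5:**
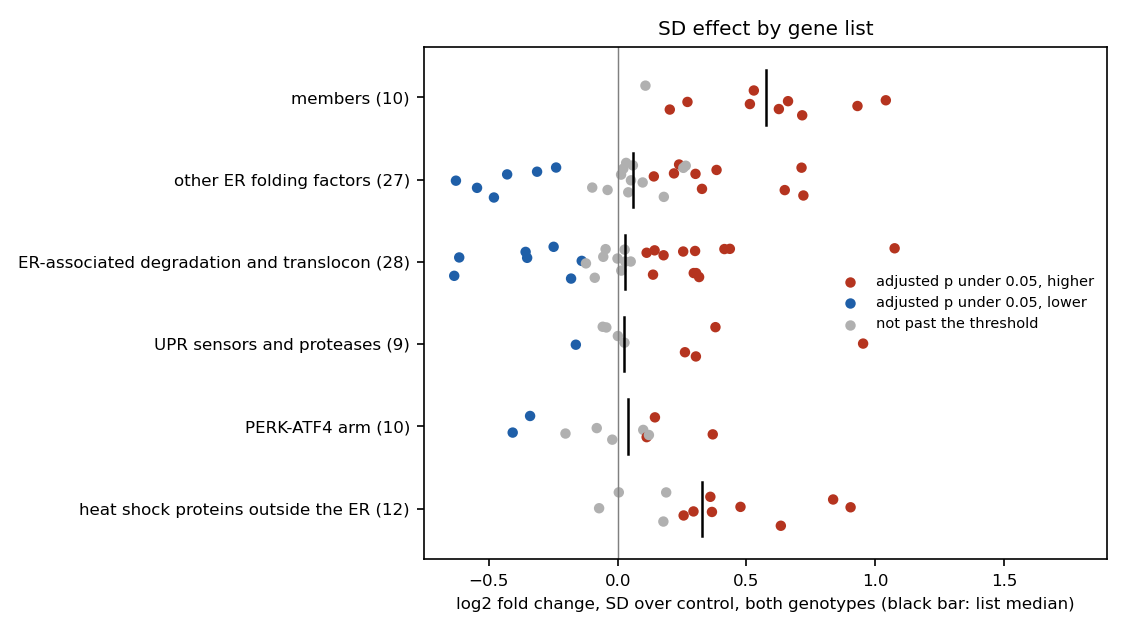
Log2 fold change, SD over control in the fit of both genotypes (horizontal axis), of each gene of the 6 lists (list size in brackets), coloured by call, with the list median as a black bar. The members have a median of 0.58 and the heat shock proteins outside the ER of 0.33, and the other 4 lists hold genes called in both directions, with medians between 0.027 and 0.059.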

How the data were processed

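RNA from somatosensory cortex was sequenced in 12 libraries of 4 groups. Per the labels, libraries were made with a stranded mRNA kit, and the submitters' processing notes name HISAT2 2.2.1, featureCounts and DESeq2 1.31.16 with mm10. The study's methods name HTSeq for counting, and the annotation and strand setting are not given in the sources used here. The authors deposited 5 tables of 24421 genes, whose values are a signal: reads divided by size factors that they set within each table. Columns of the authors' own comparisons (means, fold changes and p-values) were not used, and neither was the contrast of the fifth table, SD-AcPbKO against CTL-WT.

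Whole reads were recovered from the deposited values, with 100.0% of 732630 values within 0.01 of a whole read and 0 reads differing between tables. Levels per library are these reads divided by size factors common to the 12 libraries, and RPKM used the exon length of GENCODE models on GRCm38. Pairwise comparisons used log2(value + 1) of the table concerned, tested with limma 3.58.1 in R 4.3.3 with p-values adjusted (Benjamini-Hochberg) across every gene in the fit. SD over both genotypes and the difference of SD effects used the 12 libraries in 1 fit. Alternatives were edgeR 4.0.16 and DESeq2 1.42.0 on the recovered reads, a minimum mean of 10, pseudocounts of 0.1 and 10, centring on the median, thinning to 26504840 reads, all groups in 1 fit, a term for or the removal of the Xist libraries, a replicate block and the removal of each library. On the recovered reads edgeR called 5368 genes for SD in wild-type mice, 5682 in AcPb-/- mice and 8701 over both, against 5186, 5633 and 8823 in limma. The fits were tested on simulated data.

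All 10 members are named, with the 3 largest absolute changes among the called genes of each related list, the relatives of members, and the 10 genes of the nearest profile with a mean of at least 100. A gene that this rule names is not reported here. The members and lists were chosen with earlier results of these data known. The labels do not say more of the replicates than that they are separate samples, so p-values measure the spread between these samples.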

Additional observations from a re-analysis of the deposited data

How the results depend on the processing

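Members called for SD in wild-type mice numbered 7, and 6 to 7 under the other alternatives but 3 with the Xist libraries left out and 0 with the replicate block. In AcPb-/- mice 9 were called, 6 to 9 under the alternatives but 0 with the replicate block. Leaving out 1 library gave 6 to 7, 7 to 9 and, over both genotypes, 9 to 9. Over both genotypes the count was 9, with a range of 7 to 9, and with the replicate block 9. The genotype comparisons and the difference of SD effects gave 0 members under every alternative run. Under the block within a genotype 0 genes of all were called. Only numbers present in both groups inform the SD effect there, 01 and 02 in wild-type and 03 and 04 in AcPb-/- mice. That leaves hardly any degrees of freedom for the spread, so the block within a genotype cannot tell whether the member calls hold. The replicate numbers are only shared: same-numbered libraries deviated together with r of 0.10 and -0.075 in wild-type, -0.14 and -0.018 in AcPb-/- mice, -0.43 in controls and 0.22 and 0.23 after SD. No paired analysis was possible for genotype in controls because those groups share 1 number.

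Signs turned for low or small values, and the cause was not tested. Sdf2l1 for SD in wild-type mice became -0.087 with a term for the Xist libraries, -0.22 without them and -0.31 with the replicate block, and ranged from -0.22 to 0.15 with 1 library left out. For genotype after SD, Sdf2l1 was 0.036 after thinning, and the block gave Xbp1 -0.0095 and Dnajb11 -0.044. With 1 library left out the ranges there were -0.024 to 0.15 for Pdia6, -0.054 to 0.095 for Dnajb11, -0.021 to 0.15 for Xbp1, -0.14 to 0.23 for Sdf2l1 and -0.12 to 0.11 for Creld2. The difference of SD effects of Creld2 ranged from -0.016 to 0.22. Thinning all libraries to 26504840 reads kept 7, 9 and 9 calls. The counts of related and marker lists and the order of members without the Xist libraries were alternatives chosen after seeing the data.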

Other observations

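Besides the members, 32 genes hold an ERSE match in the RefSeq promoter window, of which 19 were tested. In the fit of both genotypes 7 of them were higher after SD (Derl3, Zfp57, Dnajc3, Pan2, Syvn1, Alg12 and Canx), 1 was lower (Xlr3b) and 11 did not pass, with a median log2 fold change of 0.12 against 0.0029 over all 20978 genes tested, of which 21.4% were higher. These names were chosen after their values were seen, and the counts were not taken without the 4 libraries with Xist reads. Without those libraries Derl3 stood at 0.98, Dnajc3 at 0.41, Syvn1 at 0.14 and Canx at 0.13, and Syvn1 and Canx no longer passed. Dnajc3 encodes an ER J-domain protein, Syvn1 the ubiquitin ligase of ER-associated degradation and Alg12 a mannosyltransferase of glycan assembly.

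Vprbp and Rbm15b, which overlap the Manf model, were also higher after SD, by 0.34 (adjusted p = 4.38e-05 in limma) and 0.21 (adjusted p = 0.000325 in limma), and 1810014B01Rik, which overlaps Hsp90b1, was lower, at -0.29 (adjusted p = 0.0444 in limma). The part of shared reads in the values of Manf was not tested.

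Atf4 stood lower in AcPb-/- than in wild-type mice on average, at 4520.5 against 6634 normalized counts in controls and 5827 against 8532 after SD, but did not pass in limma (adjusted p = 0.192 in controls and 0.0548 after SD).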
